A study of Homo sapiens with 6 samples.

Results

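The 6 genes described here control how much glucose a liver cell makes and how it answers to carbohydrate: G6PC, PCK1, PC, KLF15, MLXIPL and FOXO3. They were chosen by name for their textbook roles, with earlier results of these data known. All 6 were found among the 1998 genes of the authors' deposited table. HepG2 is a line grown from a human liver tumour that still expresses many hepatocyte genes. It was transfected with an siRNA against the long noncoding RNA H19 (siH19, 3 libraries) or with a control siRNA (siCon, 3 libraries). The values below are RNA levels, not glucose output. Both groups were harvested 48 h after transfection, and their RNA was sequenced after removal of ribosomal RNA. The labels name no genotype or treatment other than the siRNA, and nothing in them tells if each library had a culture of its own. The spread behind each standard error (SE) may therefore be technical.

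Each gene has 1 combined value per group in the authors' deposited table, given as the log2 of a normalised read count, so no value per library can be shown. That table lists only genes with an adjusted p under 0.05, and being listed is therefore no finding about any gene below. The total per library is not known, and neither is the depth behind each value. H19 itself was not analysed here, and siH19 stands for what the labels call the cells, with no check of the knockdown. Of 10 markers of hepatocytes looked up, 9 were listed. Their summed normalised counts were 310435 in siH19 and 484382 in siCon, of which APOB alone gave 182812 in siH19 and 299044 in siCon. Of the 9, 8 fell, and the median change of the 9 was -0.60 on the log2 scale. Of all listed genes 55.3% fell, and the median change of all was -0.27. Of 33 markers of bile duct, stellate, endothelial and blood cells, 5 were listed. The 1 bile duct marker had 8841 normalised counts in siH19 and 6123 in siCon, and the 1 stellate marker 484 in siH19 and 861 in siCon. The 1 endothelial marker had 52.7 in siH19 and 105 in siCon, and the 2 blood cell markers summed to 16759 in siH19 and 26484 in siCon. The labels name HepG2 and no other cells, so the markers of other cell types are not read here as a measure of such cells. In RNA from whole cultures, fewer cells that express a gene and less RNA per cell cannot be told apart. The other markers were not analysed here, and the part of these shifts in the results below was not tested.

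As background, hepatocytes make glucose from pyruvate and other small molecules. Pyruvate carboxylase (PC) turns pyruvate into oxaloacetate, the cytosolic phosphoenolpyruvate carboxykinase (PCK1) turns that into phosphoenolpyruvate, and the catalytic subunit of glucose-6-phosphatase (G6PC) performs the last step, which frees glucose for export. KLF15 and FOXO3 are transcription factors. KLF15 is known from mice for promoting gluconeogenesis and amino acid breakdown in fasting, and FOXO proteins act on genes of gluconeogenesis and stress resistance when insulin signalling is low. MLXIPL, also called ChREBP, is the transcription factor that senses carbohydrate and turns on genes of glycolysis and fat synthesis. In liver it acts together with its partner MLX on pairs of E-box sequences.

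The stretches of DNA around the transcription starts of the 3 genes that fell most are shown because these genes moved in the same direction. They run from 250 bases before to 50 bases after the start, 5′ to 3′ on the gene's strand, and come from RefSeq on GRCh38.p14, not on hg19, the build named in the submitters' processing notes. Of the 6 members, 5 were matched to a window in RefSeq. The G6PC window lies at chr17:42900549-42900848 on the plus strand, the MLXIPL window at chr7:73624473-73624772 on the minus strand and the KLF15 window at chr3:126357359-126357658 on the minus strand. Capitals mark matches, on either strand, to 11 short motifs that are named with the promoter results.
G6PC: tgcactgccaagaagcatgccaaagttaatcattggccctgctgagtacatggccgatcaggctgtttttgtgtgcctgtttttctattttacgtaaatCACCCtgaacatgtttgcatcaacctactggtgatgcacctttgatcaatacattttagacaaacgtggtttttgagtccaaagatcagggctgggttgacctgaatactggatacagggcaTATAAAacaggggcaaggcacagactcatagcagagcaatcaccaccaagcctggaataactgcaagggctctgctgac
MLXIPL: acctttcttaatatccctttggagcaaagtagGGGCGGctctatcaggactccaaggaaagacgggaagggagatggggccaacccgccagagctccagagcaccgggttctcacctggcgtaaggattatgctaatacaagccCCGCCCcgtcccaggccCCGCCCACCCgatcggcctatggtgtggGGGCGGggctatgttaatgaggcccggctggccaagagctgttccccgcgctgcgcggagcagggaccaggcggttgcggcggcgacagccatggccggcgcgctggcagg
KLF15: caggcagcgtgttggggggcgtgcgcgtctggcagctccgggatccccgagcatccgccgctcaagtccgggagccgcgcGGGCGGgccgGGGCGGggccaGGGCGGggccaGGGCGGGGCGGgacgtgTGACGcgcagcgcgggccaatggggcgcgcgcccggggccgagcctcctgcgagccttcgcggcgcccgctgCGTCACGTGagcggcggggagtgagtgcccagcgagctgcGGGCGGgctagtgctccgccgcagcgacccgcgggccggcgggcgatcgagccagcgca

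G6PC and MLXIPL were well below their control levels, KLF15 was lower by a smaller amount, PCK1 and PC were slightly lower, and FOXO3 alone of the 6 was higher. In all, 5 of the 6 were lower in siH19. Of all listed genes 55.3% were lower and 44.7% were higher, so 5 of 6 in 1 direction is described here without a test. At least a 1.5-fold fall was listed for 3 of the 6, against 15.6% of all listed genes, and at least a 2-fold fall for 1, G6PC, against 2.40%. FOXO3 rose by at least 1.5-fold, as did 12.6% of the listed genes.

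The G6PC transcript carried the largest change of the 6. For G6PC the authors' deposited table gave a log2 count of 5.81 in siH19 and 7.72 in siCon, which is 56.1 against 211 normalised counts. The level in siH19 was 26.6% of that in siCon. Its log2 fold change in the authors' deposited table, -1.91 ± 0.17 (SE), was the largest fall of all 1998 listed genes and the second largest change in either direction. The adjusted p was written as 0 there, which means below the table's precision, since its smallest value above 0 was 1e-06. Among the 393 other listed genes with a mean count within 2-fold of that of G6PC, the median absolute log2 change was 0.58 and none changed as much.

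The transcripts of the enzymes that lead up to the release of glucose changed less. PCK1 had a log2 count of 6.74 in siH19 and 7.23 in siCon in the authors' deposited table, or 107 against 150 normalised counts. Its fold change there was -0.50 ± 0.19 on the log2 scale, with an adjusted p of 0.0453, close to the limit of the table. Of 378 other listed genes of like mean count, 270 changed at least as much as PCK1. Its SE of 0.19 was larger than the median SE of these genes, 0.16. PC had a log2 count of 9.56 in siH19 and 9.96 in siCon in the authors' deposited table, or 755 against 996 normalised counts. The change, -0.40 ± 0.13 with an adjusted p of 0.0198 in the authors' deposited table, was matched or passed in size by 383 of 791 other listed genes of like mean count. Among listed genes of their level, PCK1 thus lay towards the smaller changes and PC near the middle, while G6PC changed most. Genes that miss the listing threshold are left out, so these places do not tell how common such changes were among all genes.

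The 3 transcription factors divided. MLXIPL had a log2 count of 8.17 in siH19 and 9.10 in siCon in the authors' deposited table, or 288 against 549 normalised counts. It fell by 0.94 ± 0.12 (SE) on the log2 scale in the authors' deposited table, 1.92-fold, with an adjusted p written as 0. Only 40 of 721 other listed genes of like mean count changed as much, and MLXIPL ranked 61st among all falls. KLF15 had the lowest count of the 6, with a log2 count of 5.68 in siH19 and 6.44 in siCon in the authors' deposited table, or 51.3 against 86.8 normalised counts. It fell by 0.76 ± 0.19 (SE) on the log2 scale in the authors' deposited table, with an adjusted p of 9.51e-04. A change of that size was less rare among listed genes of such low counts, where 71 of 223 others changed as much. The median SE of these genes was 0.19, and with larger SEs only larger changes pass the listing threshold. The share among all genes of that level is therefore not known. FOXO3 had a log2 count of 9.24 in siH19 and 8.49 in siCon in the authors' deposited table, or 605 against 360 normalised counts. It rose by 0.75 ± 0.11 (SE) on the log2 scale in the authors' deposited table, 1.68-fold, with an adjusted p written as 0. Of 761 other listed genes of like mean count, 76 changed as much, in either direction.

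**Figure D1:**
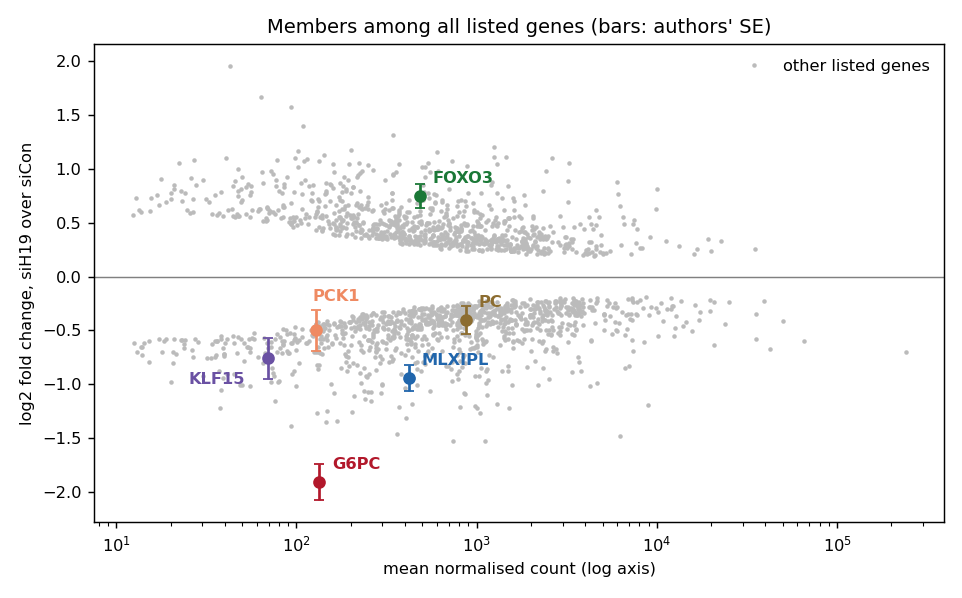
The log2 fold change of siH19 over siCon is plotted against the mean normalised count (log axis) for all 1998 listed genes, with the 6 members in colour and bars for the authors' SE. G6PC, at -1.91, lies below every other gene, while PCK1 lies near the inner edge that the listing threshold leaves and PC in the dense band beside it.

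The middle of all listed genes was itself below 0, with a median log2 fold change of -0.27. The listed genes that fell had a median of -0.44 and those that rose 0.46, and 55.3% of all listed genes fell. Only genes that passed the listing threshold enter this median, so it does not measure a shift of all expressed genes. Relative to that median, the log2 changes were -1.64 for G6PC, -0.67 for MLXIPL, -0.49 for KLF15, -0.23 for PCK1, -0.13 for PC and 1.02 for FOXO3. All 6 kept their direction, with PC then 1 SE from that median.

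Differences between members show which changes lie apart by the deposited SEs, and the spread behind those SEs may be technical. The SE of each difference was built from both deposited SEs as if the genes were independent, and no p was computed for the 15 pairs. The fall of G6PC exceeded that of MLXIPL, its nearest neighbour, by 0.97 ± 0.21 on the log2 scale, which is 4.66 SE. It exceeded that of PC by 1.51 ± 0.21 and that of PCK1 by 1.41 ± 0.25. Of the 3 glucose-producing enzymes, G6PC thus stood apart from the other two. From MLXIPL downwards, neighbours in the order of the changes lay within 1 SE of each other. The difference was -0.18 ± 0.22 for MLXIPL minus KLF15, -0.26 ± 0.27 for KLF15 minus PCK1 and -0.10 ± 0.23 for PCK1 minus PC. MLXIPL and PC, further apart in that order, differed by -0.54 ± 0.18. For PC minus FOXO3, the nearest of the 5 that fell and the gene that rose, it was -1.15 ± 0.17.

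**Figure D2:**
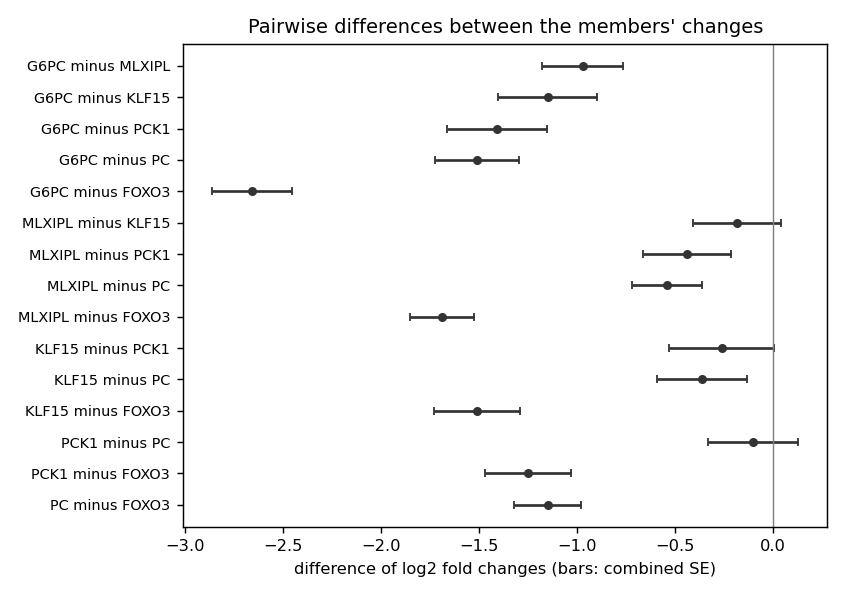
Each point is the difference of 2 members' log2 fold changes (first gene minus second), with a bar of 1 combined SE to each side. All 5 differences that involve G6PC lie 4.51 or more SE from 0, while MLXIPL minus KLF15, KLF15 minus PCK1 and PCK1 minus PC lie within 1 SE of 0.

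The order of the levels can be read only after division by gene length. Per kb of annotated exon (the union of exons in GENCODE release 29, which may not be the authors' annotation), PC was highest in both groups, at 127 normalised counts per kb in siH19 and 168 in siCon. MLXIPL stood at 59.8 per kb in siH19 and 114 in siCon, and FOXO3 at 78.3 per kb in siH19 and 46.6 in siCon, so their order was the opposite in the 2 groups. G6PC had 17.0 counts per kb in siH19 and 64.0 in siCon, KLF15 had 18.0 in siH19 and 30.5 in siCon, and PCK1 had 15.7 in siH19 and 22.0 in siCon. G6PC was therefore the fifth of the 6 in siH19, between KLF15 and PCK1, and the third in siCon. By the longest coding transcript in place of the exon union, G6PC (18.1 per kb in siH19 and 68.1 in siCon) was the lowest of the 6 in siH19, MLXIPL (87.9 per kb) stood above FOXO3 (82.4) in siH19, and PCK1 (24.6 in siH19 and 34.6 in siCon) stood above KLF15 (19.9 in siH19 and 33.7 in siCon). The spread of these levels between libraries is not held in the table, so neighbours in the order were not tested.

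**Figure D3:**
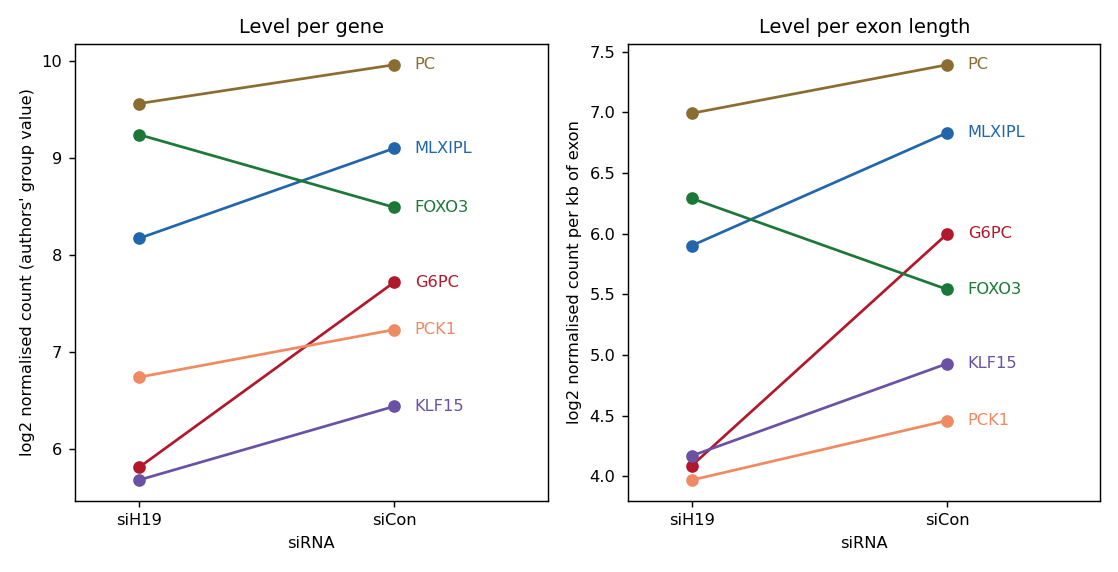
The left panel gives each member's log2 normalised count in siH19 and siCon as deposited, and the right panel the same per kb of exon, on a log2 scale. Lines join the 2 group values of a gene and no error is shown. G6PC has the steepest line, and FOXO3, at 9.24 in siH19 and 8.49 in siCon, is the 1 gene whose line runs the other way.

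Some reads may not belong to 1 gene alone. PC shares 621 exonic bases with LRFN4, which lies on the opposite strand within the PC locus. In the authors' deposited table LRFN4 moved the other way, with a log2 count of 6.60 in siH19 and 6.06 in siCon and a log2 fold change of 0.54 ± 0.19 (adjusted p = 0.0386). The libraries keep strand, but whether counting used it was not given in the sources used here. For FOXO3, 13.7% of all 76-base stretches of its longest coding transcript also occur in the processed pseudogene FOXO3B, with 8.38% in AC026271.3 and 0.619% in ZNF286B. Reads from these stretches could be split or lost, so the FOXO3 level is uncertain to that extent. For the longest coding transcripts of G6PC, PCK1, PC, KLF15 and MLXIPL, no 76-base stretch was found in a transcript of another gene, and the PC exons that overlap LRFN4 belong to other PC transcripts.

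FOXO3 carries, near the end of its messenger RNA, a short sequence that was picked out across the table. An earlier search of the same table had picked out the heptamer GCAGTAC in 3′ untranslated regions as tied to rises, so the counts that follow describe the genes it was picked on. Here 184 of 1927 searched genes held it in their longest annotated 3′ untranslated region, and 17.4% of these fell, against 58.6% of the other searched genes. FOXO3 holds it once, at position 4860 of 4982, shown with 10 bases on each side and the heptamer in capitals.
FOXO3: aaatagagatGCAGTACttaactttcc
None of the other 5 members holds it, but their searched regions were shorter, from 666 bases (PC) to 2308 (PCK1). The second heptamer of that search, CATCAAA, was tied to falls: of the 339 genes that hold it 72.0% fell, against 50.9% of the others. It was found in none of the 6 members, including the 5 that fell. The part of either sequence in the changes was not tested.

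Across the 10 windows of 5 genes, the motifs most often matched were the GC box GGGCGG and the CACCC box CACCC, each found in 4 of the 5 genes and both common in general. The GC box was matched in 7 of the 10 windows, against 45.0% of all 35116 RefSeq windows and 62.0% of the windows of listed genes. The CACCC box was matched in 6 of the 10, against 59.9% of all RefSeq windows and 64.1% of the windows of listed genes. G6PC has the least GC-rich window of the 3 printed, at 45.7% G and C with 3 CpG sites, against a median of 58.7% and 14 CpG sites over all RefSeq windows. MLXIPL has 65.0% and 23 CpG sites, and KLF15 80.3% and 50. The G6PC window has a TATA box (TATAAA) that begins 29 bases before the start, a motif held by 11.5% of all RefSeq windows. The KLF15 window holds the E-box CACGTG 46 bases before the start, found in 7.26% of all windows. The E-box overlaps 1 of 2 matches there to TGACG, a short core of the cAMP response element, which 24.6% of all windows hold. MLXIPL matched the GC box 4 times and the CACCC box once. G6PC matched the CACCC box once and KLF15 the GC box 6 times.

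PC and FOXO3, with 3 and 4 annotated starts, are not printed. Over their windows, PC matched the GC box 4 times and the CACCC box 2 times, and FOXO3 matched them 13 and 3 times. In the first window of PC, TGACG was matched 3 times and the glucocorticoid receptor core TGTTCT (14.8% of windows) 2 times, and in that of FOXO3 TGACG once. The insulin response core TNTTTTG (16.8% of windows) was matched only in the third window of PC. No window of the 5 genes matched the forkhead core TGTTTAC (3.42%), the full cAMP response element TNACGTCA (3.01%), the C/EBP core TTGCNNAA (10.5%) or the HNF4 core CAAAGNCCA (1.59%). These counts say only whether these exact letters occur in these windows. Sites spelled otherwise were not searched for in any window, that of G6PC included.

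The rest of the glucose pathway was looked up from 9 lists written from textbook roles, 245 symbols in all. The lists were drawn up with earlier results of these data known, so their counts are a description only. Apart from the 6 members, 55 were listed, 47 of them lower and 8 higher in siH19, at a median log2 change of -0.47. The shares lower are to be read against 55.3% for all listed genes, and symbols that were not listed were not analysed here. For each list the 3 largest changes, members included, are given here or with the members, and a few further genes were added after their values had been seen.

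All 8 listed genes of gluconeogenesis and glucose release, out of 26 symbols, were lower, but relative to the median of all listed genes 2 of them, LDHA and SLC25A13, would be higher. Besides G6PC, the authors' deposited table had its largest falls here in MPC1, a subunit of the mitochondrial pyruvate carrier (-1.06 ± 0.10), and GPD1, which links glycerol to the pathway (-0.83 ± 0.14). MPC1 brings pyruvate into mitochondria, where PC works, and its log2 count was 8.47 in siH19 and 9.53 in siCon in the authors' deposited table. G6PC3, the widely expressed relative of G6PC, was also lower, at 7.99 in siH19 and 8.49 in siCon on the log2 scale of the authors' deposited table. Its change, -0.49 ± 0.14 in the authors' deposited table, was about the size of that of PCK1.

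Regulators of gluconeogenesis were divided, 5 lower and 3 higher of 8 listed out of 37 symbols. The list was not split into activators and repressors, so these counts give no direction for the pathway's regulation. Next to KLF15 and FOXO3, the largest change in the authors' deposited table was the rise of KLF11 (0.70 ± 0.16), another Krüppel-like factor. NR3C1, the glucocorticoid receptor, also rose, and CEBPA, NR0B2, PPARA and HNF4A fell.

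Of the carbohydrate-response genes 10 of 12 listed, out of 31 symbols, were lower, at a median log2 change of -0.625. G6PC and MLXIPL are both in this list, and without them 8 of 10 were lower, at a median of -0.44. PKLR, the liver pyruvate kinase and a classic MLXIPL target, stood at a log2 count of 6.97 in siH19 and 7.83 in siCon in the authors' deposited table. MTTP (-0.88 ± 0.09), which loads lipid onto lipoproteins, PKLR (-0.85 ± 0.15) and MLXIPL itself fell by similar amounts in the authors' deposited table. TKT and SCD, further known targets, fell less, and the 2 genes that were higher were ARRDC4 and ELOVL6, at 0.46 ± 0.14 and 0.43 ± 0.12 in the authors' deposited table. The list thus held genes of both directions.

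Glucose uptake and phosphorylation had 5 lower and 2 higher of 7 listed, out of 21 symbols. SLC2A2, the glucose transporter of hepatocytes, fell most (-1.22 ± 0.10), to a log2 count of 9.24 in siH19 against 10.45 in siCon in the authors' deposited table. GCKR, the inhibitor of glucokinase (-0.74 ± 0.15), and SLC2A11 (-0.58 ± 0.17) followed in the authors' deposited table. The 2 that rose were the transporter SLC2A3 and the hexokinase HK1, at 0.24 ± 0.08 and 0.52 ± 0.19 in the authors' deposited table. SLC2A3 had far more counts than SLC2A2, not divided by gene length, at a log2 count of 14.4 in siH19 and 14.17 in siCon there. The summed normalised counts of this list were therefore higher in siH19, at 23218 against 21195 in siCon. In glycolysis and pyruvate entry all 5 listed of 31 symbols were lower, but only 2, PKLR and PGK1, were below the median of all listed genes. PGK1, an enzyme shared with gluconeogenesis, stood at -0.35 ± 0.09, and PDK1 and PDHX, which bear on pyruvate dehydrogenase, at -0.25 ± 0.09 and -0.25 ± 0.08 in the authors' deposited table. Of 4 listed glycogen genes, out of 31 symbols, 3 were lower, led in the authors' deposited table by the branching enzyme GBE1 (-0.55 ± 0.11) and the phosphoglucomutase PGM1 (-0.36 ± 0.11), and the phosphorylase PYGB was higher (0.41 ± 0.14). Relative to the median of all listed genes these 4 split evenly.

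Known FOXO targets were lower while FOXO3 was higher. All 11 listed of 28 symbols were lower, at a median log2 change of -0.69, and all 11 stayed below the median of all listed genes. Without G6PC and PCK1, which are in this list, 9 of 9 were lower. The largest in the authors' deposited table were TNFSF10, a death receptor ligand (-1.27 ± 0.18), and IGFBP1, a secreted IGF binding protein (-1.19 ± 0.12). IGFBP1 had a log2 count of 12.41 in siH19 and 13.59 in siCon in the authors' deposited table. SOD2 and CAT, which remove reactive oxygen, BNIP3, SESN3, BCL6, CITED2 and CDKN1A made up the rest. These genes answer to many other regulators too, and FOXO1 was not analysed here.

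In the breakdown of branched chain amino acids, on which KLF15 is known to act, all 8 listed of 20 symbols were lower, and all 8 were below the median of all listed genes. ALDH6A1 (-0.81 ± 0.13), PRODH2, an enzyme of hydroxyproline breakdown placed in the same list (-0.62 ± 0.19), and ACADSB (-0.53 ± 0.10) changed most in the authors' deposited table. HIBADH, BCKDK, AUH, MCCC2 and MUT fell by less. BCKDK is the kinase that restrains the pathway, so the list holds 1 member of opposite role. Of 4 listed insulin and glucagon signalling genes, out of 36 symbols, 3 were lower. By size, the authors' deposited table gave first the kinase SGK1 (-0.65 ± 0.09), the adaptor GRB10, which was higher (0.62 ± 0.13), and the transcription factor FOXK2 (-0.52 ± 0.10).

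**Figure D4:**
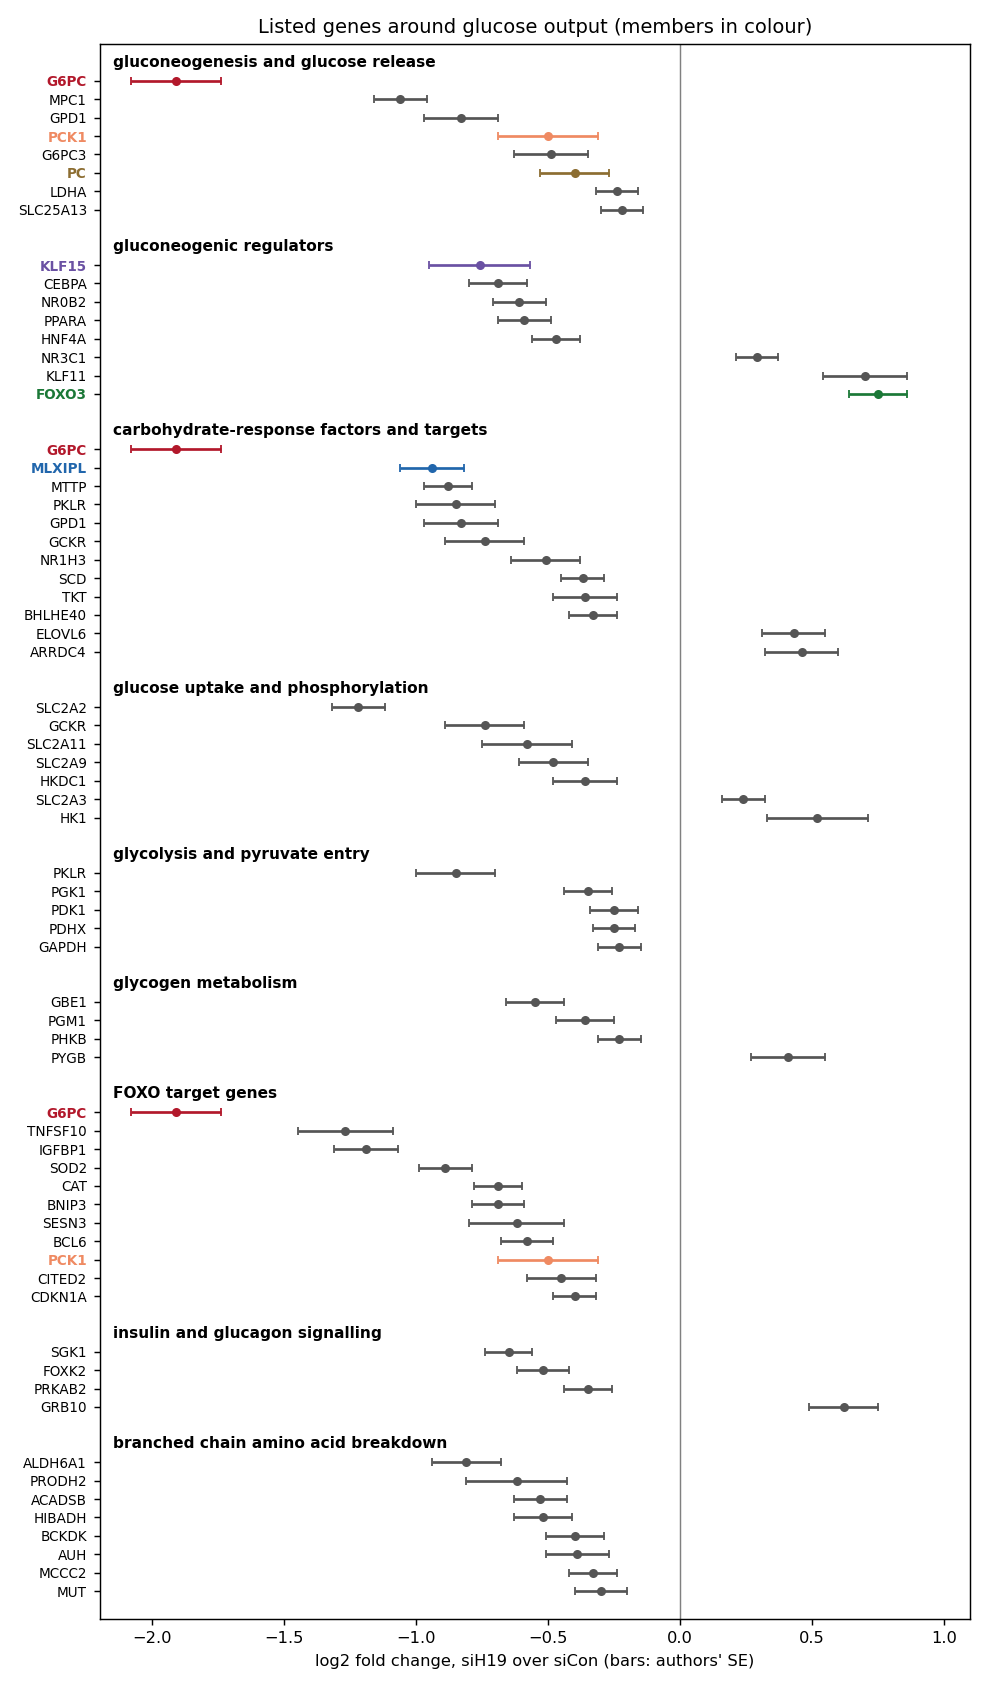
Log2 fold changes of siH19 over siCon with the authors' SE as bars are grouped by list, with the 6 members in colour and some genes shown in more than 1 list. The 11 FOXO targets and the 8 genes of branched chain amino acid breakdown all lie left of 0, while regulators of gluconeogenesis lie on both sides.

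With only 2 groups, likeness between genes means a like level and change, measured as the distance over both log2 group values. The nearest listed genes were SREBF2 (distance 0.020) and S100A16 for PC, ART4 (0.028) and NKIRAS1 for PCK1, and ODAM (0.045) and RGN for MLXIPL. For FOXO3 they were DRAM1 (0.063) and TWSG1, and for KLF15 CYP4F12 (0.072) and AQP3. G6PC had no gene as close: its nearest were TNFSF10 at 0.492 and AKR1D1 at 0.560.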

How the data were processed

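Per the labels' protocols, strand-specific libraries of RNA depleted of ribosomal RNA were sequenced as paired reads of 76 cycles. The submitters' processing notes name STAR 2.5.0a, Cufflinks 2.2.1, DESeq2 1.0.0 and the build hg19, with no role or order; the annotation, the handling of multi-mapped reads and the use of strand are not stated there. The authors deposited 1 table with log2 counts per group, a log2 fold change and its SE. Per the file headers the table also has a mean count, a normalised signal, and the q-value deposited by the authors is an adjusted p, under 0.05 in all 1998 rows and written as 0 in 287. The deposited fold change equalled siH19 minus siCon within 0.01.

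The design had foreseen a fit per library; as the table held the authors' comparison, no gene was tested anew. Members, lists and motifs were chosen with earlier results of these data known. The 6 members, the 3 largest changes of each of 9 lists and the 2 genes nearest to each member were named; 1 gene of these lists is not reported here and was left out of their counts. Levels, ranks, differences and counts were computed with Python 3.11.15 and pandas 2.3.3, and the motif search was tested on simulated sequences. Sequences came from RefSeq (GRCh38.p14), and lengths, overlaps and 3′ untranslated regions from GENCODE release 29. Alternatives were stricter adjusted p, size and count limits, pseudocounts and centring.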

Additional observations from a re-analysis of the deposited data

How the results depend on the processing

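The members' directions held under the 5 other scalings tried for each (the difference of the group values, pseudocounts of 1 and 10, and 2 centrings): 0 of 30 values reversed. At an adjusted p under 0.01 or 0.001, PCK1 (-0.50 on the log2 scale) and PC (-0.40) no longer passed, which leaves 3 members lower. The count of members lower was also 3 at 1.5-fold or more and 1 at 2-fold or more. It was 4 at a mean count of at least 100, which KLF15, at 69.1, did not reach. For the 9 lists, 24 of 36 counts of lower genes stayed within 1.5 times under 4 alternatives. Centring the lists, an alternative added after seeing the data, left 8 of 9 counts within that range; the glycolysis list had 2 lower genes in place of 5. Without the 50 bases after the start, the windows matching the insulin response core numbered 0 in place of 1 and those matching TGTTCT 1 in place of 2, the count also found on the gene's strand only. No paired analysis was possible because the table holds 1 combined value per group; for the same reason leaving out libraries, edgeR and other size factors were not run. For KLF15, the lowest count, counting error alone would give an SE of 0.147 if the normalised counts were reads, against the authors' 0.19.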
